A study of Mus musculus with 10 samples.

Results

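At week 4 of a diet rich in fat and cholesterol, the liver of C57BL/6J mice carried the transcripts of an inflamed organ. Genes of neutrophils and monocytes, chemokines, MHC class II chains, interferon-induced GTPases and serum amyloid A stood above their levels at weeks 1, 12 and 21 of the same diet, while genes of fatty acid oxidation stood below them. The array of that week, 1 of 10 in the series and 1 of 4 from fed C57BL/6J mice, was selected on measured values of these same genes. Its contrast with the 3 other fed arrays is therefore described here without a test.

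All mice were female. Livers of C57BL/6J, called B6, and of a second inbred strain, DBA/2J, called D2, were collected after 0, 1, 4, 12 and 21 weeks of feeding, and the labels name no genetic change and no other agent. Each strain and week is 1 Affymetrix Mouse Genome 430 2.0 array of RNA pooled in equal amounts from 5 mice, so a week has no replicate of its own and the spread between mice of a pool is not measured. The labels give no ages, so age and time on the diet cannot be told apart. The arrays compared are the B6 week 4 array, the other fed B6 arrays (weeks 1, 12 and 21) and the B6 array before the diet (week 0), with the 5 D2 arrays of the same weeks beside them. Values are log2 levels of quantile normalised signal, differences are week 4 minus the mean of the 3 other fed arrays of the strain on that log2 scale, and the SD given is that of those 3 arrays. A gene is called higher or lower at week 4 where that array lies at least 2-fold, 1 on the log2 scale, beyond the nearest of the 3.

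Feeding mice a diet of this kind loads the liver with fat and cholesterol, and C57BL/6J is known as a strain whose liver becomes inflamed on it. In an inflamed liver, resident macrophages (Kupffer cells) and hepatocytes release chemokines, which draw neutrophils and monocytes from the blood. Cytokines then switch hepatocytes to the acute phase response, in which they secrete proteins such as serum amyloid A, and interferon gamma made by lymphocytes induces guanylate-binding proteins, CXCR3 chemokines and MHC class II.

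S100a8, Lcn2 and Saa1 mark the inflamed liver. They are among the genes on which the array was selected, so their values describe it and are no separate check of its name. S100a8, a calcium-binding protein that fills the cytosol of neutrophils, had a level of 8.16 at week 4 against 4.41, 4.16 and 5.38 at weeks 1, 12 and 21 and 3.32 at week 0. Lcn2, the iron-siderophore binding lipocalin of neutrophils and stressed hepatocytes, was at 12.15 against 9.27, 6.29 and 10.17. Saa1, an acute phase apolipoprotein of hepatocytes, was at 12.55 against 10.93, 8.66 and 10.90. All 3 were highest at week 4 without overlap, and the other fed arrays were themselves spread widely in Lcn2 (SD 2.03, n = 3) and Saa1 (SD 1.30), with week 12 lowest. Hepatocyte transcripts were abundant on the same array: albumin (Alb) was at 12.64 against 12.54 to 12.60, and the 14 genes of secreted hepatocyte proteins differed by a median of -0.01, or -0.21 with each array centred on its median. All of them but F9 and Serpina6 had levels above 12 on every array, near the top of the array's range, where a difference can be compressed.

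Of 11061 genes that passed a filter on low levels, 271 were higher at week 4 of B6 (2.45%) and 52 were lower (0.470%). The same rule found 72 higher (0.651%) and 41 lower (0.371%) at week 1, 39 (0.353%) and 145 (1.31%) at week 12, and 17 (0.154%) and 49 (0.443%) at week 21. No other fed array of either strain had as many genes above its companions, and week 12 of B6 had the most below them. Because each gene is compared with 3 arrays that include the others, these counts are not independent. Without the week 21 array in the comparison, 410 genes were higher and 79 lower. Without the week 1 array the counts were 348 and 119. Under this rule, leaving out an array can only add genes. The filter used the mean level over all arrays, B6 week 4 among them, so a gene can pass it only because it is high there. Slamf8, for example, had a mean of 3.95 against a cut of 3.74, with 7.98 at week 4 of B6. With no filter on low levels, 593 of 18193 named genes were higher at week 4 of B6 (3.26%) and 348 were lower (1.91%).

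**Figure D1:**
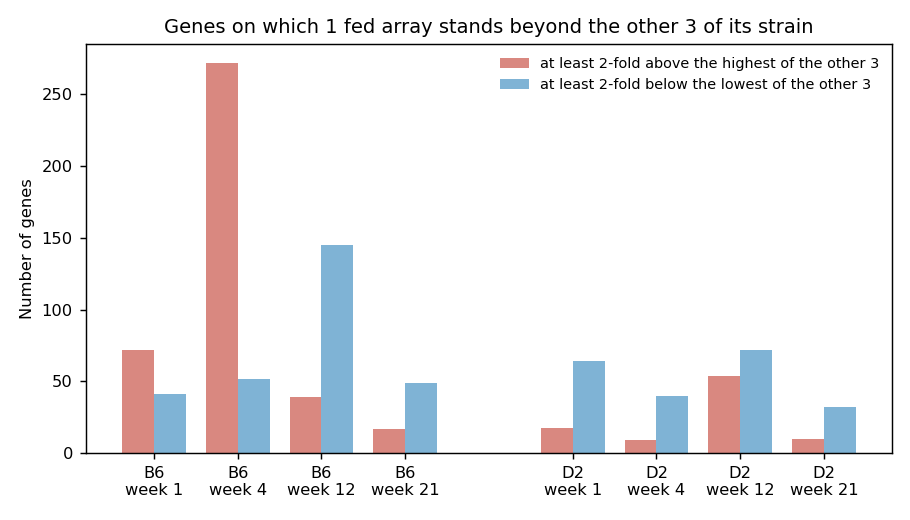
Number of genes (of 11061) on which each fed array lies at least 2-fold above the highest (red) or below the lowest (blue) of the 3 other fed arrays of its strain. B6 week 4 stands out upward with 271 genes and B6 week 12 downward with 145, while D2 week 4 has 9 and 40.

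The 271 higher genes had a median level of 7.55 at week 4 against 5.74, 5.11 and 5.69 at weeks 1, 12 and 21 and 4.93 at week 0. Their differences ran from 1.11 to 4.87 with a median of 1.83, where the median over all 11061 genes was -0.03. In 266 of them week 4 was also at least 2-fold above week 0. The nearest of the other fed arrays was week 21 in 158 genes, week 1 in 100 and week 12 in 13, and the farthest was week 12 in 216. The 52 lower genes had a median difference of -1.83 and a median level of 3.51 at week 4, and 48 of them lay at least 2-fold below week 0 as well. Levels that low are close to background, and 11 of the 52 reached 7 in all 3 other arrays. At the edge of the rule, Tuba1a and Plekho2 lay 1.001 and 1.004 above the nearest array and Cd48 and Tapbp 0.998 and 0.997, while Homer2 lay -1.006 and Rbm12b1 -0.984 from it, so the counts divide a continuous range.

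Control probe sets of the array lay within or close to those of the other arrays. The ratio of 3′ to 5′ probe sets of Gapdh was 0.730 against 0.675 to 0.723 on the 9 other arrays. That of actin was 1.78, the lowest of the 10, and the trimmed mean of the deposited signal was 85.1 in a range of 56.2 to 89.1. Its correlations with the fed arrays of weeks 1, 12 and 21 were 0.959, 0.936 and 0.961. In a bulk sample, more cells of a type and more RNA per cell cannot be told apart.

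The 15 largest differences upward among genes with a week 4 level of at least 7 came from a few groups: Ubd, Ccl5, Fpr2, Cxcl9, Saa2, Marco, Lcn2, Slamf8, S100a8, Gbp2, S100a9, Calhm6, Dram1, Cd274 and Orm2. The largest was that of Ubd, a ubiquitin-like modifier of cytokine-treated cells, at 10.10 against 6.02, 4.15 and 5.51, a 29.3-fold difference. Slamf8, a SLAM family receptor of myeloid cells, was at 7.98 against 4.99, 3.70 and 4.57. Cd274, which encodes the checkpoint ligand PD-L1, was at 7.42 against 5.26, 3.47 and 4.24. Dram1, a lysosomal membrane protein of autophagy, was at 7.74 against 5.22, 3.27 and 5.35. In each of these genes week 4 was more than 2 log2 units above every other fed B6 array, and weeks 1 and 21 lay above week 12.

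**Figure D2:**
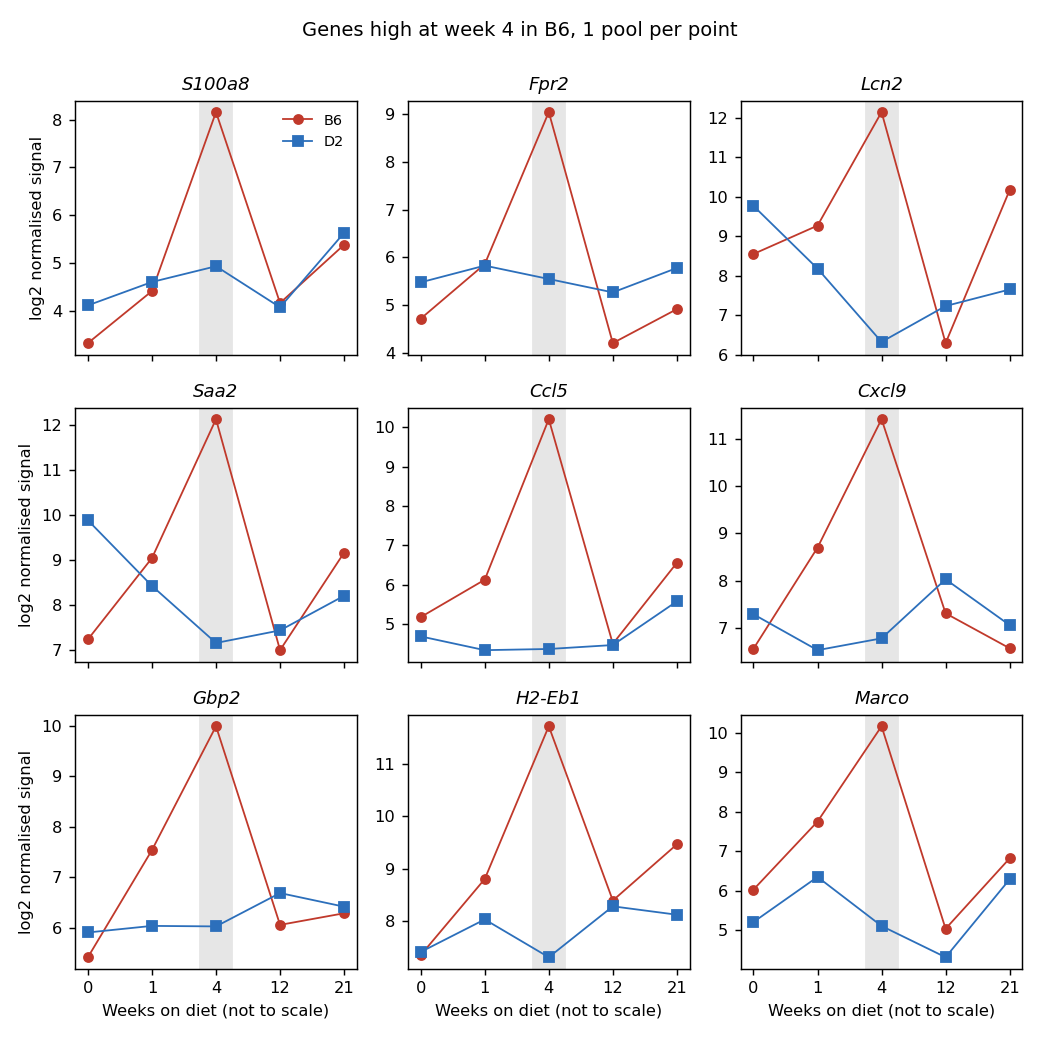
Log2 normalised signal of 9 genes in B6 (red circles) and D2 (blue squares) at 0, 1, 4, 12 and 21 weeks on the diet, 1 pool of 5 mice per point, with week 4 shaded. In each panel the B6 week 4 point is the highest of the 10 arrays, and the D2 week 4 point lies within or below the range of the other D2 points.

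Promoters of the higher genes were searched for the letters that inflammatory transcription factors read, because many of these genes are textbook targets of the same few factors. For each gene, the 250 bases before the first transcription start listed in RefSeq (GRCm38.p6) were searched on both strands for GGANTTTCC, an NF-kB type site, TTCNNTTTC, an interferon response type site, TTCNNNGAA, a STAT type site, and TTGCNNAA, a C/EBP type site. Motifs may share bases where they overlap. The interferon response letters were settled after the shares for a longer form had been seen, and a PPAR type motif was also searched, with few matches, and is not given here. A promoter was listed for 216 of the 271 higher genes, 40 of the 52 lower genes and 8999 of the 11061 genes. The interferon response letters were in 35 of the 216 (16.2%), in 6.15% of the 8999 and in 7.16% of all 27025 promoters in the table. The NF-kB letters were in 9 (4.17%) against 1.02% of the 8999, the C/EBP letters in 34 (15.7%) against 7.63%, and the STAT letters in 23 (10.6%) against 5.93%. Among the 40 promoters of lower genes these letters were in 2, 1, 4 and 3, in that order. Of the promoters shown here, chosen because their genes carry the chemokine, interferon and acute phase results below, capitals mark a match. Cxcl1 lies at chr5:90890995-90891244 (plus strand), Cxcl10 at chr5:92348890-92349139 (minus strand), Gbp2 at chr3:142620413-142620662 (plus), Saa2 at chr7:46751583-46751832 (plus) and Orm2 at chr4:63362199-63362448 (plus), each written 5′ to 3′ along its gene.
Cxcl1: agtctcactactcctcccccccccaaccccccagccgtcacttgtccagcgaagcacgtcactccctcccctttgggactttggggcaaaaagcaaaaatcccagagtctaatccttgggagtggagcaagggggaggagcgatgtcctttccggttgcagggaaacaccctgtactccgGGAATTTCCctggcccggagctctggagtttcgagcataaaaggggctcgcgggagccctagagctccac
Cxcl10: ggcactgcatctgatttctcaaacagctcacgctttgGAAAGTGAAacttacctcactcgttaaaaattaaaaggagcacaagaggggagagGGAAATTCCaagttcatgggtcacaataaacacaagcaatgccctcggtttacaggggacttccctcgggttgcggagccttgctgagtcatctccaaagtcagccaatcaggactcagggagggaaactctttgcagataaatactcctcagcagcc
Gbp2: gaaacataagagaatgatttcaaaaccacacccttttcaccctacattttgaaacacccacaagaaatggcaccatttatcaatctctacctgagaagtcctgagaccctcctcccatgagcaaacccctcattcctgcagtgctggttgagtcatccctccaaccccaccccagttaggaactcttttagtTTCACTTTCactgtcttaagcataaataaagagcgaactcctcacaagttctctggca
Saa2: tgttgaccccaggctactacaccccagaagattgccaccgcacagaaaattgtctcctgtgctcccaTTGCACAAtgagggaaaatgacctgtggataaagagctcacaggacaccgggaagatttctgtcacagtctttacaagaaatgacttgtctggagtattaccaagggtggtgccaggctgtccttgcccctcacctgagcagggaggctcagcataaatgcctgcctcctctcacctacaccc
Orm2: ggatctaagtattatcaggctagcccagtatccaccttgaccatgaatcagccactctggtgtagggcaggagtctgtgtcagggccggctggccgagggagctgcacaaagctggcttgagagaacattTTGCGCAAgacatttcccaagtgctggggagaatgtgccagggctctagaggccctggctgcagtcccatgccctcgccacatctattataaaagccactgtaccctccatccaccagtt
Cxcl1 carries the NF-kB letters 62 to 70 bases before its start, Cxcl10 those letters and the interferon response letters, Gbp2 the interferon response letters 50 to 58 bases before its start, and Saa2 and Orm2 the C/EBP letters. A match of letters is a description of the sequence and does not show that a factor bound there.

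Neutrophil genes were high at week 4. Of 22 genes with a probe set, 13 were at least 2-fold above all 3 other fed arrays, where 593 of all 18193 named genes were (3.26%, without the filter on low levels), none was below, and the median difference was 2.40 against -0.02 over all genes. Fpr2, a receptor for formylated bacterial and mitochondrial peptides, was at 9.04 against 5.86, 4.21 and 4.92, a 16.4-fold difference. S100a9, the partner of S100a8 in calprotectin, was at 7.68 against 4.52, 3.92 and 4.70. Clec4e, the lectin receptor Mincle of neutrophils and macrophages, was at 8.60 against 4.00, 2.96 and 2.80, and Clec4d, its close relative, was at 7.49 against 3.57, 3.47 and 4.33. Il1b, the inflammasome-processed cytokine, was at 7.62 against 5.56, 5.33 and 5.01. Genes of neutrophil granules had lower levels. Ngp was at 6.22 against 4.19, 3.37 and 3.65, and Camp, the cathelicidin precursor, at 4.97 against 1.42, 1.00 and 1.04. Mpo and Elane, the granule enzymes of immature neutrophils, had levels of 4.26 and 4.45 at week 4 and lay less than 2-fold above the nearest array. Only 7 of the 22 passed the filter, 6 of them higher, since most neutrophil genes are near background in the other arrays. The median of the 22 fell to 1.11 with a pseudocount of 16 and to 0.70 with a floor of 16. The summed signal of the 22 genes was 6740 at week 4 and 337 to 1450 in the other fed B6 arrays. Most of the week 4 sum is Lcn2, at 12.15 against 9.27, 6.29 and 10.17, which stressed hepatocytes also express. Lcn2 and S100a8, on which the array was selected, are among the 22 and among the 13, so these counts are in part no separate result.

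Monocyte genes were high as well. Of their measured members, 10 of 13 were at least 2-fold above all 3, where 3.26% of all genes were, with a median difference of 2.21. Below all 3 lay 1 member, with a difference of -0.72. Ccr2, the receptor by which monocytes leave the marrow towards CCL2, was at 7.32 against 4.72, 4.16 and 4.48. Its other probe sets, of lower mean level, lay 1.79 or 0.37 above the nearest array or within the range of the others. Cybb, the catalytic chain of the phagocyte NADPH oxidase, was at 10.40 against 7.89, 6.84 and 8.30. Lyz2, the myeloid lysozyme, was at 11.93 against 9.71, 8.63 and 10.81. Chil3, a chitinase-like protein of alternatively activated macrophages and monocytes, was at 6.89 against 2.31, 0.47 and 3.77. Levels of Ccr2 were alike in the 3 other fed arrays (SD 0.28, n = 3), whereas those of Lyz2 differed (SD 1.09), with week 21 nearest to week 4. The Ms4a genes, membrane proteins of myeloid and lymphoid cells, had 5 of 10 members that passed the filter higher, where 2.45% of the 11061 genes were. Ms4a6d was at 7.70 against 5.10, 4.42 and 6.01. The probe sets of Ms4a6d and Ms4a4c can bind more than 1 transcript.

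Resident Kupffer cells and lipid-laden macrophages showed a mixed picture. Of 16 Kupffer cell genes, 10 were above all 3 by any margin (25.1% of all genes were) and 15 had a difference above 0, with a median of 0.95. At least 2-fold above all 3 were 2 of the 16, where 3.26% of all genes were. Marco, a scavenger receptor for unopsonised particles, was at 10.16 against 7.75, 5.04 and 6.82. Csf1r, the growth factor receptor of all macrophages, was at 11.43 against 10.03, 9.35 and 10.27. The complement chains C1qa, C1qb and C1qc, which macrophages make, lay 0.89, 0.76 and 0.90 above the nearest array. Clec4f, the lectin that defines the resident cells, was at 9.06 within the range of the others (8.35 to 9.48), as were Vsig4 at 9.47 (8.36 to 9.97) and Folr2 at 7.05 (6.00 to 7.16). Of 16 genes of lipid-laden macrophages, 1 lay below all 3 other fed arrays, and the lowest difference was -1.31. At least 2-fold above all 3 were 3, with a median difference of 1.72 over the 16. These 3 were Itgax, the integrin CD11c (7.67 against 4.98, 4.65 and 6.22), Tyrobp, the adaptor of TREM2 (10.38 against 8.46, 7.45 and 9.22), and Fabp5, a fatty acid binding protein (10.43 against 7.76, 8.22 and 9.40). Other members were high at week 21 too. Gpnmb, a lysosomal glycoprotein of foamy macrophages, was at 8.74 at week 4 and 9.56 at week 21 against 5.04 and 6.51, and Cd68 was at 9.13 and 8.30 against 7.14 and 5.90. Mmp12, the macrophage elastase, was likewise higher at week 21 (7.41) than at week 4 (6.51). Trem2 itself, at 2.03, was near background.

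Chemokine genes had 12 of 20 members at least 2-fold above all 3, where 3.26% of all genes were. Their median difference was 2.11 (1.31 with a pseudocount of 16 and 1.20 with a floor of 16). Among the ligands of CXCR3, which draw T cells, Cxcl9 was at 11.42 against 8.70, 7.31 and 6.57, a 14.8-fold difference, and Cxcl10 at 8.66 against 6.82, 5.27 and 5.18. Ccl5, a chemokine made by T cells and macrophages, was at 10.21 against 6.13, 4.50 and 6.56, a 22.4-fold difference. Cxcl1 and Cxcl2, the neutrophil attractants that bind CXCR2, were at 9.47 against 6.88, 7.32 and 6.91 and at 6.63 against 4.48, 3.33 and 3.70. Ccl2, the monocyte attractant, was at 7.47 against 4.50, 2.46 and 3.61. Cxcl13, which draws B cells, was at 7.03 against 5.07, 3.76 and 5.04, and its other probe set lay 0.62 above the nearest array. In Cxcl9, Cxcl10 and Cxcl2, week 1 was the second highest of the fed arrays. Cxcl12, a constitutive chemokine of stromal cells, went the other way with 8.94 against 9.41 to 9.70, and Ccl9 lay within the range of the other arrays. Cxcr2, the neutrophil receptor, was at 3.15, within the range of the other arrays and near background.

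Genes induced by NF-kB, the transcription factor of TNF, IL-1 and Toll-like receptor signals, were high. Of 17, 10 were at least 2-fold above all 3, where 3.26% of all genes were, and the median difference was 1.66. Cd14, the lipopolysaccharide co-receptor, was at 9.02 against 6.12, 5.97 and 6.69, and Tlr2, a receptor for bacterial lipopeptides, at 7.73 against 5.33, 4.64 and 5.55. Tnfaip3, the feedback inhibitor A20, was at 7.70 against 5.61, 5.02 and 5.99. Icam1, the endothelial ligand of leukocyte integrins, was at 8.56 against 6.91, 6.11 and 6.90, and Tnf was at 5.38 against 2.89, 3.42 and 3.25. Il6 was at 2.57, near background and within the range of the other arrays. Among 17 cytokine signalling genes only Socs3 and Socs1, feedback inhibitors of JAK and STAT signals, were at least 2-fold above all 3. Socs3 was at 8.42 against 7.17, 6.54 and 6.72, and Stat3 was at 9.26 against 8.50, 8.43 and 8.50. Another Socs3 probe set lay 1.05 above the nearest array and a further one 0.01, so its call depends on the probe set.

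Interferon-induced genes were high to unequal degrees. Of 18, 6 were at least 2-fold above all 3, where 3.26% of all genes were. By any margin 16 were above all 3, where 4574 of the 18193 genes were (25.1%), and the median difference was 1.11. The 6 were the GTPases Gbp2, Gbp3, Igtp and Irgm1, which interferon gamma induces, and Ifit2 and Oasl2, which type I interferon induces. Gbp2 was at 9.99 against 7.54, 6.06 and 6.29, a 10.3-fold difference, Igtp at 10.86 against 9.56, 8.51 and 8.21, and Irgm1 at 9.35 against 7.96, 7.29 and 7.32. All 6 guanylate-binding protein genes that passed the filter (Gbp2, Gbp2b, Gbp3, Gbp6, Gbp7 and Gbp8) were called higher, where 2.45% of the 11061 genes were. Their differences ran from 1.74 in Gbp3 to 3.36 in Gbp2. Ifit2 was at 6.72 against 5.37, 4.23 and 4.88, and Oasl2 at 7.25 against 5.78, 5.52 and 5.28, differences of 1.89 and 1.73 beside 1.83 in Irgm1. Other genes of the type I response lay less than 2-fold above the nearest array: Ifit1, which binds viral RNA, was at 7.03 against 6.09, 5.51 and 5.13, Rsad2 (viperin) at 7.58 against 7.19, 6.47 and 6.81, and Irf7 at 8.44 against 8.09, 7.25 and 7.57.

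MHC class II genes, which present peptides to CD4 T cells, had 6 of 7 members at least 2-fold above all 3, where 3.26% of all genes were. Their median difference was 2.39. H2-Eb1, a beta chain, was at 11.71 against 8.80, 8.39 and 9.46, a 7.09-fold difference, and H2-Ab1 was at 10.85 against 8.44, 7.53 and 8.63. Cd74, the invariant chain, was at 12.11 against 9.87, 9.05 and 10.25. H2-DMa, the peptide exchange factor, was at 8.77 against 6.22, 6.10 and 6.45. The remaining member, the master regulator Ciita, was at 5.14 against 4.52, 3.72 and 4.37. Each of the 4 probe sets of H2-Aa and each of the 3 of H2-Ab1 lay at least 2-fold above the other arrays.

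T and natural killer cell genes were low on the scale throughout. Of 16, 4 were at least 2-fold above all 3, where 3.26% of all genes were. The median difference was 1.20 (0.51 with a pseudocount of 16 and 0.49 with a floor of 16). Besides Ccl5 these were Cd3g at 4.92 against 3.68, 2.51 and 3.72, Cd4 at 2.76 against 1.29, 1.61 and 1.47, and Nkg7, a cytotoxic granule protein, at 5.80 against 4.14, 4.08 and 4.39. The T cell receptor chains Cd3d and Cd3e were at 5.60 and 5.06, above the nearest array (week 21) by 0.85 and 1.00. Cd8a at 4.40, Prf1 at 3.78 and Ncr1 at 2.49 lay within the range of the other arrays. Of 8 B cell genes none was at least 2-fold above all 3.

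Acute phase genes divided. Of 26, 7 were at least 2-fold above all 3, where 3.26% of all genes were, and none was 2-fold below. Among the 7 are Lcn2 and Saa1, on which the array was selected, and Lcn2 is also counted with the neutrophil genes. The median difference was 0.67. Saa2 was at 12.13 against 9.04, 6.99 and 9.16, a 13.3-fold difference, and Saa3, the form that macrophages also make, was at 11.17 against 8.71, 6.95 and 8.71. Orm2, an alpha-1-acid glycoprotein, was at 11.14 against 8.94, 6.84 and 8.38. Il1rn, the IL-1 receptor antagonist, was at 7.16 against 5.53, 5.45 and 5.39, and Steap4, a metalloreductase, at 10.25 against 8.92, 8.68 and 8.47. The fibrinogen chains differed by 0.07 (Fga), 0.02 (Fgb) and 0.05 (Fgg), haptoglobin (Hp) by 0.13, hemopexin (Hpx) by 0.07 and hepcidin (Hamp) by -0.06. These last genes have levels above 12 on every array, near the top of the array's range, where a difference can be compressed. Crp, at 11.21 against 11.27, 11.13 and 11.18, lay within the other arrays. The Saa2 probe set can also bind other transcripts, Saa1 and Saa2 being nearly identical, so their values are not independent. Of 16 complement genes none was at least 2-fold above all 3, and the largest difference was 1.21, in Cfp (properdin), which phagocytes secrete.

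**Figure D3:**
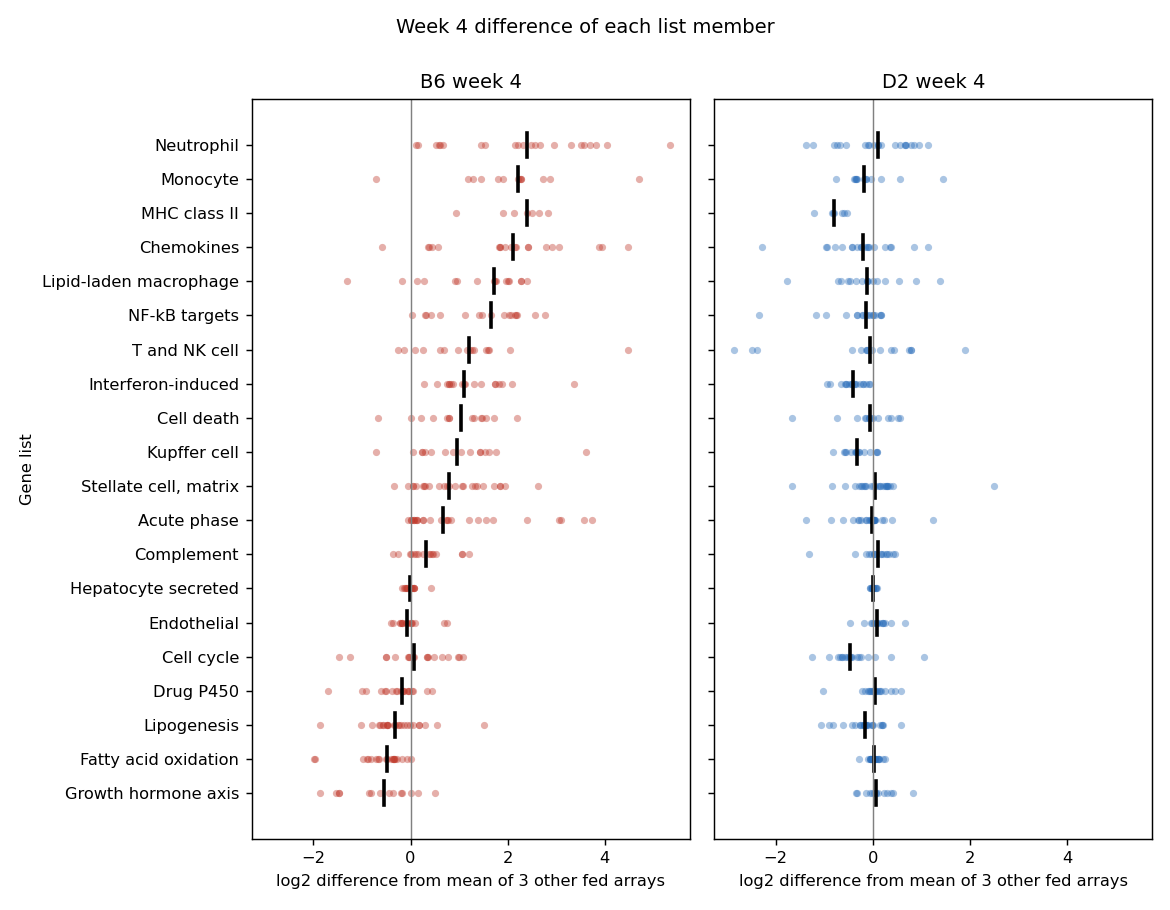
Difference of week 4 from the mean of the 3 other fed arrays (log2) for each measured member (point) of 20 gene lists, in B6 (left) and D2 (right), with the median of each list as a black bar. In B6 the medians run from 2.40 for neutrophil and 2.39 for MHC class II genes to -0.54 for the growth hormone axis, and in D2 that of MHC class II genes is -0.80.

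Matrix genes of stellate cells, the collagen-producing cells of the liver, had 8 of 25 members at least 2-fold above all 3. Of all genes 3.26% were, and the median difference of the 25 was 0.80. Col1a1, a fibrillar collagen chain, was at 7.59 against 6.12, 4.56 and 6.56, and Col3a1 at 10.32 against 8.88, 7.88 and 8.66. The other Col1a1 probe set lay 0.58 above the nearest array. Vim, an intermediate filament protein that leukocytes also contain, was at 9.93 against 7.74, 7.46 and 8.74. Tgfb1, the profibrotic cytokine, was at 7.55 against 6.35, 5.58 and 6.25. Acta2, the actin of activated stellate cells, was 0.55 above the nearest array at 6.94, and Timp1, the protease inhibitor of scar tissue, 0.78 above it at 5.43. Des and Pdgfra, further stellate cell markers, were at 4.49 and 5.81, below and within the range of the others. Endothelial genes had a median difference of -0.08 and no member called in either direction, with Stab2 at 8.11 against 7.86 to 8.51.

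Among 14 cell death genes, 6 were at least 2-fold above all 3, where 3.26% of all genes were. All 6 were of the inflammasome or of necroptosis. Pycard, the inflammasome adaptor ASC, was at 7.19 against 5.18, 4.31 and 5.51, Casp1 at 6.52 against 5.16, 4.99 and 4.99, and the sensor Nlrp3 at 5.50 against 3.95, 3.74 and 4.41. Other Pycard probe sets, of lower mean level, lay 0.75 and -0.92 from the nearest array. Casp4, which encodes the lipopolysaccharide-sensing caspase 11, was at 6.24 against 4.92, 4.88 and 5.10. The necroptosis kinase Ripk3 and its substrate Mlkl were at 5.43 against 3.98, 2.78 and 4.39 and at 6.68 against 5.57, 5.10 and 5.47. Casp8 at 7.74 and Fas at 7.14, of the death receptor pathway, differed by 0.22 and -0.00. Of 18 NRF2 and glutathione genes, 2 were higher, again beside 3.26% of all genes. They were Hmox1, the heme oxygenase, at 8.60 against 7.24, 5.99 and 7.42, and Cbr3, a carbonyl reductase. Nqo1, a standard NRF2 target, was at 6.10 within the other arrays. Of 19 cell cycle genes none was at least 2-fold above or below all 3, and week 1 was the higher one, with Mki67 at 6.55 at week 1 and 5.82 at week 4.

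Genes that burn fatty acids were low. Of 21 fatty acid oxidation genes, 18 were below all 3 other fed arrays by any margin, where 4919 of the 18193 genes were (27.0%), and none above all 3, with a median difference of -0.48, and 2 were at least 2-fold below, where 348 of the 18193 genes were (1.91%). These 2 were Acot1, a cytosolic acyl-CoA thioesterase induced by PPAR-alpha, at 7.72 against 9.12, 9.76 and 10.22, a 3.95-fold difference, and Pdk4, the kinase that blocks pyruvate oxidation in fasting, at 4.79 against 6.38, 6.97 and 6.88. Cpt2 and Slc25a20, which bring acylcarnitines into mitochondria, were at 9.30 against 9.85, 10.03 and 10.05 and at 9.86 against 10.26, 10.51 and 10.76. Vnn1 and Cyp4a14, further PPAR-alpha targets, were at 8.82 against 9.07, 10.25 and 9.78 and at 11.20 against 11.66, 11.98 and 12.40. Ppara itself was at 9.08 against 9.21, 10.44 and 9.76. In each of the genes just named week 4 was the lowest of the 5 B6 arrays and week 1 the nearest of the other fed ones. Blood cell markers stood high on the same array, the summed signal of the 13 monocyte genes being 7590 at week 4 against 1810, 903 and 2730, and their part in the lower levels was not tested.

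Acot3 and Acot4, peroxisomal thioesterases in the same gene cluster as Acot1, were also called lower. Acot3 was at 8.36 against 9.49, 10.59 and 10.36, and Acot4 at 6.51 against 7.64, 8.11 and 7.82. The cluster's mitochondrial member Acot2 was at 6.72 and lay -0.68 from the nearest array. Acot9, a thioesterase outside that cluster, went the other way at 7.16 against 6.01, 5.95 and 6.48. The probe set of Acot3 can bind more than 1 transcript, and these genes are close copies, so their values are not independent.

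**Figure D4:**
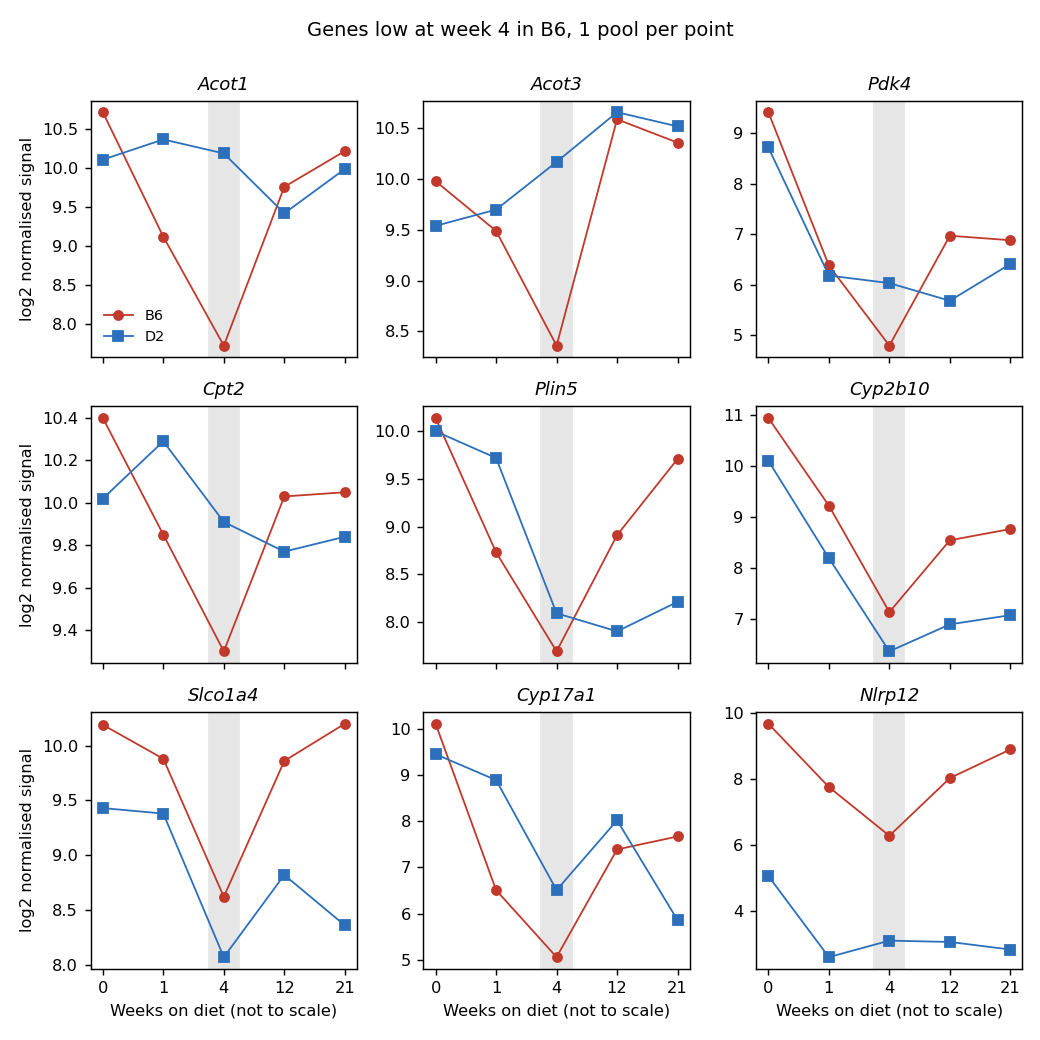
Log2 normalised signal of 9 genes in B6 (red circles) and D2 (blue squares) by weeks on the diet, 1 pool of 5 mice per point, with week 4 shaded. The B6 week 4 point is the lowest of the 5 B6 points in each panel, and in Cyp2b10 and Slco1a4 the D2 week 4 point is also the lowest of its strain.

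Single genes of lipid storage, drug metabolism and transport also lay low at week 4, while most members of their lists were not past 2-fold. Of 20 drug-metabolising P450 genes and their receptors, 1 was at least 2-fold below all 3, with a median difference of -0.17, and of 18 genes of bile acid sensing and transport 2 were, with a median of -0.20 (1.91% of all genes were). Plin5, a lipid droplet coat that couples droplets to mitochondria, was at 7.69 against 8.73, 8.91 and 9.71. Acacb, the acetyl-CoA carboxylase that restrains oxidation, was at 4.80 against 5.99, 7.49 and 6.52, and was the only one of 25 lipogenic genes at least 2-fold below all 3. Fasn, the fatty acid synthase, was at 9.78 within the range of the others (9.11 to 10.50), and Srebf1 was at 10.73. Cyp2b10, a target of the xenobiotic receptor CAR, was at 7.13 against 9.22, 8.54 and 8.76, and all 3 of its probe sets lay at least 2-fold below the other arrays. The xenobiotic receptor PXR (Nr1i2) was at 6.94 against 7.85, 7.86 and 7.84. Cyp3a11, the main PXR target, was at 12.82 against 12.78 to 12.80, near the top of the scale. The organic anion carrier Slco1a4 was at 8.62 against 9.88, 9.86 and 10.20, and Slco1a1 was at 1.39, close to background, against 6.86, 6.28 and 3.47. The other Slco1a1 probe set lay -0.65 from the nearest array, so its call depends on the probe set. Slc10a1, the sodium-dependent bile acid carrier, was at 10.93 against 11.15, 11.77 and 11.81. Cyp17a1, a steroid hydroxylase, was at 5.06 against 6.51, 7.39 and 7.67.

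Of 14 growth hormone axis genes, 8 were below all 3 other fed arrays by any margin (27.0% of all genes were) and 1 at least 2-fold below (1.91% of all genes), with a median difference of -0.54. That 1 was Elovl3, a fatty acid elongase with a daily rhythm, at 3.21 against 5.10, 5.27 and 4.84. Igf1, the hormone that growth hormone induces, was at 10.77 against 11.08, 11.14 and 11.20. Among 16 clock genes, Cry1, a repressor of the core loop, was at 4.65 against 6.88, 6.39 and 6.88. It was the only one at least 2-fold beyond the others, where 1.91% of all genes were 2-fold below. Dbp and Nr1d1, which peak in the day, were at 9.64 and 6.56, within and just above the other fed arrays. The labels give no time of day, so a difference in hour and a difference in week cannot be told apart for these genes.

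The remaining named genes with low levels at week 4 were of mixed function. Nlrp12, a NOD-like receptor, was at 6.29 against 7.77, 8.04 and 8.91. Phlda1, a pleckstrin-like domain protein, was at 7.50 against 8.84, 8.57 and 8.61, and Map7, a microtubule-associated protein, at 6.00 against 7.20, 7.12 and 7.42. Homer2 and Pdzd11, scaffold proteins, were at 6.79 against 8.13, 8.39 and 7.79 and at 6.42 against 7.58, 7.87 and 7.63. Where all probe sets of a gene were averaged, the differences of Pdzd11 and Map7 shrank to -0.38 and -0.53. Of 13 lower genes with several probe sets above the filter, 12 had all of them below the mean of the other arrays and 3 had all of them past 2-fold. Of 87 such higher genes, 81 had all probe sets above and 47 had all past 2-fold.

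The D2 arrays were not used to choose the week, and there week 4 did not stand apart. By the same rule, 9 of 11061 genes were higher at week 4 of D2 (0.0814%) and 40 were lower (0.362%). Without 1 of the other fed D2 arrays, which can only add genes, these counts ranged from 16 to 18 and from 59 to 70. None of the 271 genes was at least 2-fold above the other fed D2 arrays at week 4, and 3 (Tbxas1, Ccl8 and Ubd) were at least 2-fold below them. The median difference of the 271 genes in D2 was -0.12, against 0.02 over all 11061 genes, and 96 of them had a difference above 0. Without the filter on low levels, 9757 of all 18193 named genes had a D2 difference above 0. None of the 52 lower genes was past 2-fold in D2, and 36 of them had a difference below 0. At week 4 itself, B6 was at least 2-fold above D2 in 255 of the 271 genes, with a median of 2.28 between the strains. These genes were chosen for a high B6 week 4 value, which the count uses again. A high count follows in part from that choice and is no separate result on the strains. Across the 11061 genes, which are not independent replicates, the differences in B6 and D2 had a Pearson correlation of 0.01 and a Spearman correlation of 0.09.

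A limma fit to the 8 fed arrays, with the single D2 week 4 array given the spread of the other fed arrays, called 0 of 11061 genes between D2 week 4 and the other fed D2 arrays (0%) after Benjamini-Hochberg adjustment. At an unadjusted p under 0.05 there were 192 (1.74%), 67 higher and 125 lower. The smallest adjusted p was 0.121, for Tbxas1, thromboxane synthase, at 1.65 at week 4 against 4.74, 4.67 and 4.46 at weeks 1, 12 and 21. In B6 the same gene was at 6.27 at week 4 against 4.58, 4.66 and 4.82. Tbxas1 was called where all probe sets of a gene were averaged (adjusted p = 0.0411) and, with the protease gene Ctsk, where the variance had no trend (adjusted p = 0.0206 and 0.0322). Ccl8, a monocyte attractant, was at 1.72 in D2 at week 4 against 4.03, 4.30 and 3.69 and at 6.86 in B6 against 4.86, 4.72 and 4.78. The D2 values of both genes at week 4 are near background.

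The groups that were high in B6 were not so in D2, a difference that was not tested. Neutrophil genes had a median difference of 0.11 in D2 with none of 22 at least 2-fold above the other fed D2 arrays, and S100a8 was at 4.93 against 4.60, 4.07 and 5.63. Lcn2 was at 6.32 in D2 at week 4 against 8.18, 7.23 and 7.65, the lowest of the 4 fed arrays. Saa1 was at 9.31 against 10.21, 9.10 and 10.47, and Cxcl9 at 6.78 against 6.53, 8.03 and 7.06. All 7 MHC class II genes had a difference below 0, with a median of -0.80, where 9757 of all 18193 named genes had one above 0. Among them H2-DMa differed by -0.53 (limma unadjusted p = 0.0347) and H2-Eb1 by -0.83 (unadjusted p = 0.0486), and neither passed after adjustment. All 18 interferon genes also had a difference below 0 in D2 (median -0.40), with none past 2-fold. Fatty acid oxidation genes had a median of 0.03, and Acot1 was at 10.19 against 10.37, 9.42 and 9.99. By any margin, 27.0% of all 18193 named genes lay below all 3 other fed arrays at week 4 in B6, and the share in D2 was not counted. Beside such a share, Cyp2b10, Slco1a4 and Phlda1, of the 11 named lower genes, lay below all 3 at week 4 in D2. They were at 6.36 against 8.19, 6.89 and 7.07, at 8.07 against 9.38, 8.82 and 8.36, and at 8.14 against 8.40, 9.50 and 9.21. Their limma unadjusted p was 0.0685, 0.0551 and 0.0442, and the adjusted p was 1.00 in each.

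**Figure D5:**
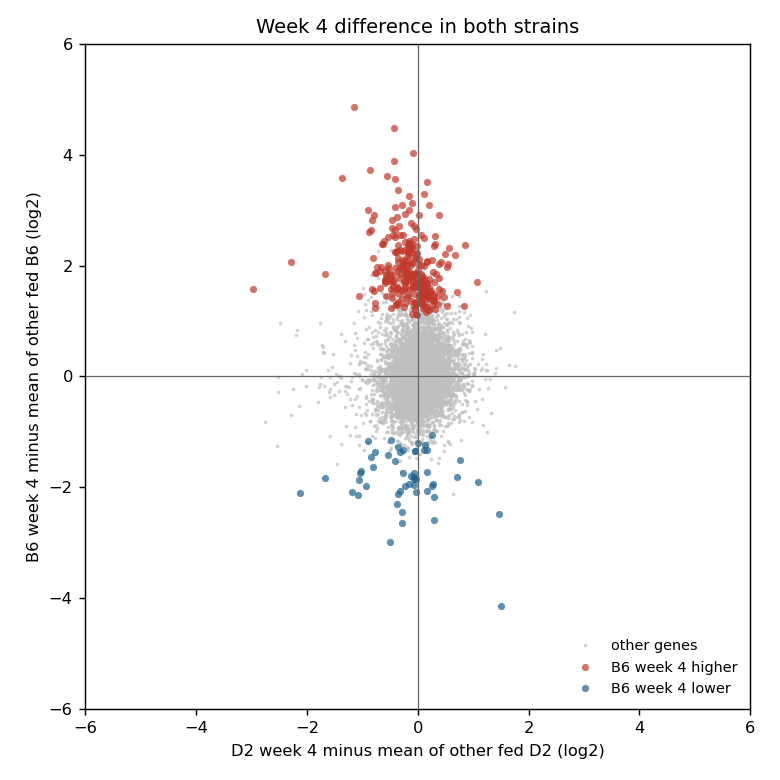
Difference of week 4 from the mean of the 3 other fed arrays (log2) in D2 (horizontal axis) and B6 (vertical axis) for 11061 genes. The 271 genes called higher in B6 (red) and the 52 called lower (blue) scatter around 0 on the D2 axis, with medians of -0.12 and -0.19.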

How the data were processed

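Per the labels' protocols, total RNA was extracted with Trizol, pooled from 5 mice, biotinylated and hybridised to 1 array. The deposited values are intensities (linear signals) that the authors made with GCOS, per the submitters' processing notes; its settings are not given in the sources used here. Of 45101 probe sets, the 64 controls were left out. The intensities were quantile normalised in limma 3.58.1 (R 4.3.3) and moved to log2 after adding a pseudocount of 1.05, which is the 10th percentile of the deposited signals. Probe sets with 1 symbol in the platform annotation (34945, for 18193 genes) were used, the highest mean standing for its gene. A mean over all arrays, B6 week 4 among them, above 3.74, the 50th percentile of probe sets, left 11061 genes. The 271 and 52 genes, the gene family counts, the promoter shares and the D2 values of these genes rest on that filtered set. A pseudocount shrinks the fold changes of low genes, and with one this small their differences still depend on its size. The median difference of the neutrophil list was 2.40 here and 1.11 with a pseudocount of 16.

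The members, the 36 gene lists (635 entries, 62 without a probe set of their own) and the rules were chosen with earlier results of these data known. Lists are described over all members with a probe set, since a gene can pass the filter only because it is high at week 4. Named genes are the 15 largest differences in each direction with a level of at least 7 (11 downward), the 3 markers, the first 3 and up to 6 most different members of each list, and the smallest p-values in D2. Further members were named after their values were seen.

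The limma fit (lmFit, eBayes with trend, Benjamini-Hochberg, threshold 0.05) was tested on simulated data. It had 4 residual degrees of freedom, and the weeks stood in for replicates, so its error contains any change over time. Promoters are the 250 bases before the start in RefSeq. Figures were drawn with matplotlib. The number of arrays limits the precision.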

Additional observations from a re-analysis of the deposited data

How the results depend on the processing

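The B6 week 4 counts, 271 higher and 52 lower, were 593 and 348 without the filter on low values, 96 and 21 with a mean above the 75th percentile, 543 and 211 at a fold of 1.5, and 88 and 18 at a fold of 3. With a pseudocount of 16 or a floor of 16, the lower genes numbered 16 or 26 and the higher genes 199 or 336, of which 195 and 268 were among the 271. Leaving out 1 other fed array gave 285 to 410 higher and 64 to 119 lower. Adding week 0 to the arrays compared, an alternative chosen after seeing the data, gave 266 and 48. The direction of these changes is fixed by the rule: an array left out can only add genes, and an array added can only remove them.

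The D2 week 4 counts, 9 higher and 40 lower, were 3 and 3 with a pseudocount of 16, 7 and 3 with a floor of 16, 4 and 62 with values as deposited, 307 and 421 without the filter, 3 and 1 above the 75th percentile, 51 and 130 at a fold of 1.5, and 0 and 12 at a fold of 3. Leaving out 1 other fed D2 array, which can only add genes, gave 16 to 18 higher and 59 to 70 lower. The limma fit called 1 gene with probe sets averaged, 2 without a trend, and 0 under the other alternatives run, including the 4 fed D2 arrays alone. The cause of these changes was not tested.

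No list median of at least 1 in size changed sign in 572 further values. Nor did any of the 27 genes named for the largest differences or as markers. Of 356 list medians, 303 moved by less than the SD over the other arrays, as did 209 of 216 differences of these 27 genes. Of the 103 list members past 2-fold, 78 stayed past it with a pseudocount of 16 and 102 with values as deposited. With a floor of 16, 88 stayed past it and 97 kept the sign of their difference. No paired analysis was possible because each week has 1 pool per strain and the replicate numbers only name arrays. Signals near background limit the lower genes most.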

Other observations

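Genes of MHC class I loading, picked after their values were seen, were also high on the B6 week 4 array. The immunoproteasome subunits Psmb9 and Psmb8, which replace constitutive catalytic subunits under interferon gamma, had levels of 8.88 against 7.31, 6.67 and 6.62 at weeks 1, 12 and 21 and of 9.24 against 8.10, 7.55 and 7.67. The third such subunit, Psmb10, lay 0.70 above the nearest array. The peptide transporter chain Tap1 was at 8.13 against 6.44, 5.89 and 5.69, and its partner Tap2 lay 0.81 above the nearest array. The class I heavy chain H2-K1 and the light chain B2m differed by 0.21 and 0.14, at levels near the top of the array's range. In D2 the differences of Psmb9, Psmb8 and Tap1 were -0.19, 0.03 and 0.02.

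Genes that all leukocytes express, chosen in the same way, followed the myeloid genes. Ptprc (CD45) was at 9.58 against 7.43, 6.90 and 7.70, Itgb2, the beta chain of leukocyte integrins, at 9.81 against 7.44, 6.16 and 8.29, and Coro1a, an actin regulator of blood cells, at 8.52 against 6.20, 5.83 and 6.69. Pkm, the pyruvate kinase of non-hepatocyte cells, was at 8.29 against 6.22, 5.31 and 6.29. The same 4 genes differed by -0.02, -0.41, -0.32 and -0.18 in D2.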
